A study of Mus musculus with 2 samples.

Results

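The 6 chemokine receptor genes Ccr2, Cx3cr1, Ccr1, Cxcr4, Cxcr2 and Ccr7 were described in sorted myeloid cells of the mouse ankle synovium. They were taken by name from the 32285 genes of the deposited matrices, and none of them was used to define a cell class. The animals were chimeras on the B6 background in which CD45.1 bone marrow had been placed into CD45.2 hosts with the ankle shielded from irradiation. Both libraries share this chimerism and the sort, which kept live CD45+CD11b+ cells and removed those with surface Ly6G, SiglecF, CD177, CD64, Ly6C or MHCII. The steady state library had no treatment, and the day 7 library came from chimeras given 200 µL of clodronate liposomes (Clo-lip) retro-orbitally 7 days before. Such liposomes are toxic to cells that engulf them. The labels do not give the number of animals pooled in a library.

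Chemokine receptors are G protein-coupled receptors that steer leukocytes along gradients of chemokines. In monocytes, Ccr2 is known for the exit of Ly6C-high cells from bone marrow and their entry into inflamed tissue, while Cx3cr1, the receptor of fractalkine, marks Ly6C-low patrolling monocytes and the lining macrophages of the joint. Ccr1 binds several CC chemokines of the Ccl3 and Ccl9 type. Cxcr4 binds Cxcl12 and holds cells in the marrow, Cxcr2 binds Cxcl1 and Cxcl2 and mobilises neutrophils, and Ccr7 leads migrating dendritic cells to lymph nodes.

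The genes lie in the GRCm38.p6 (mm10) assembly as follows, with spans from RefSeq. Ccr2 (ENSMUSG00000049103) spans chr9:124101918-124109140 and Ccr1 (ENSMUSG00000025804) chr9:123962126-123968692, 133225 bases apart. Cx3cr1 (ENSMUSG00000052336) spans chr9:120048683-120068296. Cxcr4 (ENSMUSG00000045382) spans chr1:128588199-128592299, Cxcr2 (ENSMUSG00000026180) chr1:74153994-74161246 and Ccr7 (ENSMUSG00000037944) chr11:99144199-99155077.

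The RefSeq promoter table held 5 of the 6 members. The 250 bases before the start of Cx3cr1 and Cxcr4 are printed, because these genes had the most alike levels over cell classes among the pairs of members compared (below). Both are on the minus strand and are written 5′ to 3′, with matches to the KLF box CACCC in capitals; KLF factors are known regulators of Ly6C-low monocytes.
Cx3cr1, chr9:120068297-120068546: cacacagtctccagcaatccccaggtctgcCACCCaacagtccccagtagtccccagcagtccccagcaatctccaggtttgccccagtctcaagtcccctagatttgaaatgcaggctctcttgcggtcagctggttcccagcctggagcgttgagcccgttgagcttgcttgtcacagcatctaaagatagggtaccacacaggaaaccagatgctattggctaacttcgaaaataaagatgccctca
Cxcr4, chr1:128592300-128592549: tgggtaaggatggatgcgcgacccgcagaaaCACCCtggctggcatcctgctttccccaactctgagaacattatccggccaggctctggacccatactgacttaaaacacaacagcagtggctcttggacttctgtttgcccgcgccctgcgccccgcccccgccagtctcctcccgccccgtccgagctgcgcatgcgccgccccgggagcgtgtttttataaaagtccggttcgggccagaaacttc
Each window held 1 match, which began 220 bases before the start in Cx3cr1 and 219 in Cxcr4. On either strand the same 5 letters occur in 52.0% of the 32851 promoter windows of this length, so their presence sets neither gene apart. The Ccr1 window held none and that of Cxcr2 held 1. The table's window for Ccr2 (chr9:124101933-124102182) lies inside the gene span given above and so is not sequence before the start of that span; it held none. The palindrome TTGCNNAA and the AP-1 letters TGANTCA, searched in the same way, were in none of the 5 windows, that of Ccr2 included, against 9.56% and 6.75% of all windows.

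Surface protein was read through antibodies that each carry a 15-base barcode, and 3 of the members had one. The whole barcode is the identifying part and is in capitals.
CCR2 antibody: AGTGCGATCTGCAAC
CX3CR1 antibody: CACTCTCAGTCCTAT
CXCR4 antibody: GTCGTGGTGTTGTTC

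After filtering, 1630 steady state cells with 17060676 UMIs and 1200 day 7 cells with 10824984 UMIs remained, with medians of 9558.5 and 8309 UMIs per cell, and the libraries shared 0 cell barcodes. UMIs of a gene were summed over the cells of a class and scaled to 1000000 UMIs of that class (CPM). Each group is 1 library without replicates, so no p-value is given, and the 95% intervals in parentheses cover counting error alone. Classes were gated on marker RNA: Ly6c2-high monocytes (83 cells at steady state, 426 at day 7), monocytes with Treml4 or Ace and little Ly6c2 (95 and 96; called Treml4/Ace monocytes), monocytes with Treml4 or Ace and Ly6c2 (24 and 33), class II cells (244 and 97), C1q-high macrophages (923 and 167), and early and late granulocyte precursors (0 and 50; 5 and 85). Cells in no gate numbered 183 and 209. Ly6c2 and class II RNA were thus found in cells sorted as negative for surface Ly6C and MHCII.

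The gates were checked on genes they did not use. Spn, Eno3, Adgre4 and Cd300e were each highest in Treml4/Ace monocytes in both libraries, and Csf1r, Mertk and Adgre1 in macrophages. Pglyrp1, the remaining check of Treml4/Ace monocytes, was highest in late granulocyte precursors in both libraries. It stood at 3088 CPM there against 1006 in Treml4/Ace monocytes at steady state, and at 3143 against 283 at day 7. The 4 genes used as checks of Ly6c2-high monocytes were not highest there in either library: Vcan and F13a1 were higher in macrophages, and Chil3 and Hp in granulocyte precursors. At day 7 Chil3 was also lower in Ly6c2-high monocytes (428 CPM) than in Treml4/Ace monocytes (571 CPM). Fcgr1, which encodes the CD64 of the sort, was not highest in macrophages. As a background, levels were read in the fibroblast-like cells of the sort (68 and 16 cells), a type that should lack these receptors. There, Ccr2 stood at 30.8 CPM (18.8 to 47.6) at steady state and 89.0 (35.8 to 183) at day 7, Cx3cr1 at 3.08 and 0, Ccr1 at 3.08 and 0, and Cxcr4 at 0 and 89.0 (35.8 to 183). The day 7 Ccr2 and Cxcr4 levels of these 16 cells rest on 7 UMIs each. These 16 cells, 15 of them donor-class, also held Ly6c2 at 534 CPM, against 0 in those at steady state. Day 7 Ly6c2-high monocytes held 2071 CPM of Ly6c2. The 68 steady state cells held the class II gate genes at 766 CPM and the C1q genes at 116 CPM. Class II cells held 27959 CPM of the former and macrophages 13190 of the latter. The 20 steady state Ccr2 UMIs of the fibroblast-like cells lay in 5 cells. Neither background was therefore free of myeloid marker RNA, and comparisons with either below carry this limit. At steady state 7.35% of the fibroblast-like cells held a Ccr2 UMI and 1.47% a Cx3cr1 UMI, at a median depth of 10191 UMIs.

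Ccr2 RNA was highest in Ly6c2-high monocytes and class II cells and below the background level in Vsig4 macrophages. In Ly6c2-high monocytes it reached 926 CPM (864 to 991) at steady state and 1045 (1015 to 1077) at day 7. Treml4/Ace monocytes held 242 CPM (209 to 280) and 219 (184 to 259). The monocytes that carried both Treml4 or Ace and Ly6c2 lay between them, at 596 CPM (506 to 698) and 432 (363 to 512). The intervals of these 3 monocyte classes did not overlap in either library. At steady state 95.2% of Ly6c2-high monocytes and 40.0% of Treml4/Ace monocytes held a Ccr2 UMI.

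Cx3cr1 RNA had the opposite order among monocytes. Treml4/Ace monocytes held 403 CPM (359 to 451) at steady state and 387 (340 to 439) at day 7, against 140 (116 to 166) and 151 (140 to 163) in Ly6c2-high monocytes. Monocytes with both marker sets held 408 CPM (334 to 493) and 353 (290 to 425), which overlapped the Treml4/Ace class. For Cx3cr1 the intermediate class was therefore like the Treml4/Ace class within counting error, while for Ccr2 it lay between the others. Beside Treml4/Ace monocytes it held 2 of 4 members at least 2-fold higher at steady state (Ccr2 and Ccr1, with log2 ratios of 1.30 and 2.41), against 8.11% of genes higher and 8.57% lower. At day 7 it was 1 of 4 (Ccr1, 1.88; Ccr2 gave 0.98), against 7.17% and 6.45%.

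Of the 4 members with at least 20 CPM in either class, Ccr2 and Ccr1 were at least 2-fold higher in Ly6c2-high than in Treml4/Ace monocytes in both libraries, where 10.6% of all genes tested were that much higher at steady state and 10% at day 7. Cx3cr1 was at least 2-fold lower, as were 10.5% and 7.25% of genes. The log2 ratio of Ccr2 was 1.93 (1.70 to 2.17) at steady state and 2.26 (2.01 to 2.51) at day 7. That of Cx3cr1 was -1.53 (-1.84 to -1.22) and -1.36 (-1.57 to -1.14). Both libraries gave each gene the same side. When classes were named from clusters instead of single-cell gates, the Ccr2 ratio became 1.56 and 3.23, a move of over 1.5 times at day 7.

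**Figure D1:**
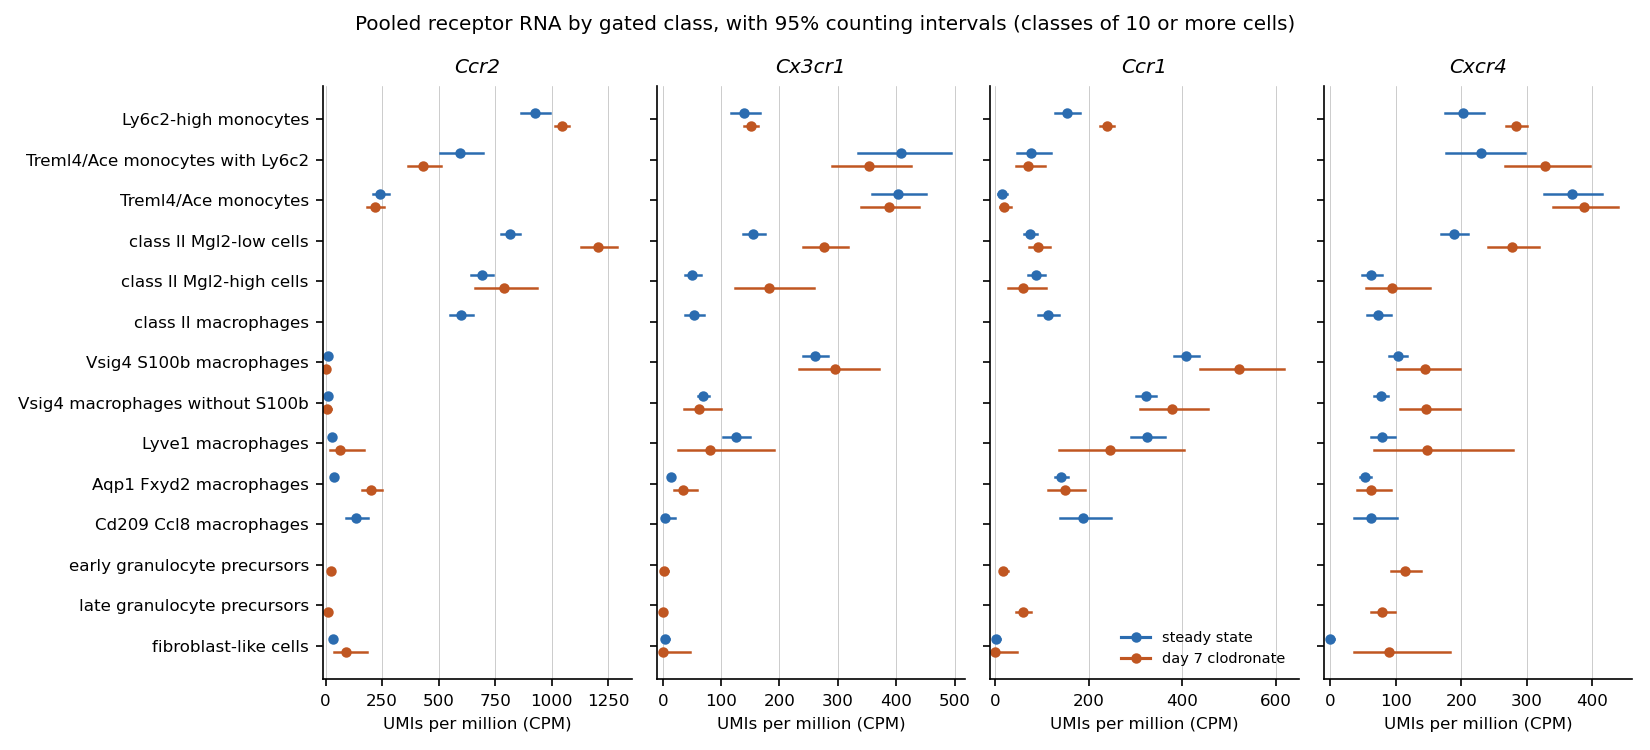
Pooled RNA of Ccr2, Cx3cr1, Ccr1 and Cxcr4 (x axis, CPM) in gated classes of 10 or more cells (y axis), for the steady state and day 7 libraries. Points are summed levels and bars 95% counting intervals; Ccr2 is highest in Ly6c2-high monocytes and class II cells (926 CPM in the former at steady state), Cx3cr1 in the Treml4/Ace classes (403 CPM), and Ccr1 in Vsig4 S100b macrophages (408 CPM).

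Ccr1 separated the monocyte classes by the widest ratio of the members. It stood at 153 CPM (128 to 181) in Ly6c2-high monocytes at steady state and 239 (224 to 254) at day 7. Treml4/Ace monocytes held 14.5 CPM (7.23 to 25.9) and 19.0 (9.84 to 33.3), from 11 and 12 UMIs. The log2 ratio was 3.40 (2.52 to 4.44) at steady state and 3.65 (2.84 to 4.61) at day 7. Cxcr4 was the other way round and by less: 203 CPM (175 to 235) in Ly6c2-high against 369 (327 to 414) in Treml4/Ace monocytes at steady state, and 284 (268 to 300) against 387 (340 to 439) at day 7. Its log2 ratio was -0.86 (-1.14 to -0.58) and -0.45 (-0.65 to -0.24).

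The Ccr2 against Cx3cr1 balance was then read per cell. Each cell was thinned to 3000 UMIs, because detection rises with depth, and cells below that depth were left out (197 of the 1630 and 223 of the 1200). Of 78 Ly6c2-high monocytes at steady state, 43 held Ccr2 alone, 27 both genes, 5 Cx3cr1 alone and 3 neither. Of 359 at day 7, 201 held Ccr2 alone, 119 both, 13 Cx3cr1 alone and 26 neither. Cells with Ccr2, alone or with Cx3cr1, made up most of this class in both libraries.

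At this depth Cx3cr1 alone was the most frequent state of Treml4/Ace monocytes. Of 81 cells at steady state, 33 held Cx3cr1 alone, 16 both, 5 Ccr2 alone and 27 neither. Of 85 at day 7, the numbers were 39, 12, 12 and 22. The most frequent state depended on depth: unthinned at steady state 37 cells held both and 37 Cx3cr1 alone, and at 1500 UMIs neither gene was found in 45 of 88 and 52 of 93 cells. Among monocytes with both marker sets, 10 of 23 cells at steady state and 12 of 33 at day 7 held both receptors, 8 and 10 Cx3cr1 alone, and 4 and 2 Ccr2 alone.

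Double-positive cells thus made up 34.6% (24.2 to 46.2) of Ly6c2-high monocytes at steady state and 33.1% (28.3 to 38.3) at day 7, and 19.8% (11.7 to 30.1) and 14.1% (7.51 to 23.4) of Treml4/Ace monocytes. These shares follow depth: unthinned they were 69.9% and 57.5% in Ly6c2-high and 38.9% and 27.1% in Treml4/Ace monocytes. Thinned, Ccr2 contributed 83.7% and 86.4% of the summed Ccr2 and Cx3cr1 UMIs in Ly6c2-high monocytes, 60.7% and 57.5% in the intermediate class and 32.6% and 35.9% in Treml4/Ace monocytes. Capture at the 3′ end differs between genes, so this share compares classes and does not rank the genes.

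Within Ly6c2-high monocytes the genes showed no consistent opposition from cell to cell. At day 7, 90.2% of the cells with Cx3cr1 held Ccr2, and 88.5% of the cells without it did. At steady state the shares were 84.4% of 32 cells and 93.5% of 46. In Treml4/Ace monocytes the direction differed between libraries: 32.7% against 15.6% at steady state and 23.5% against 35.3% at day 7.

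**Figure D2:**
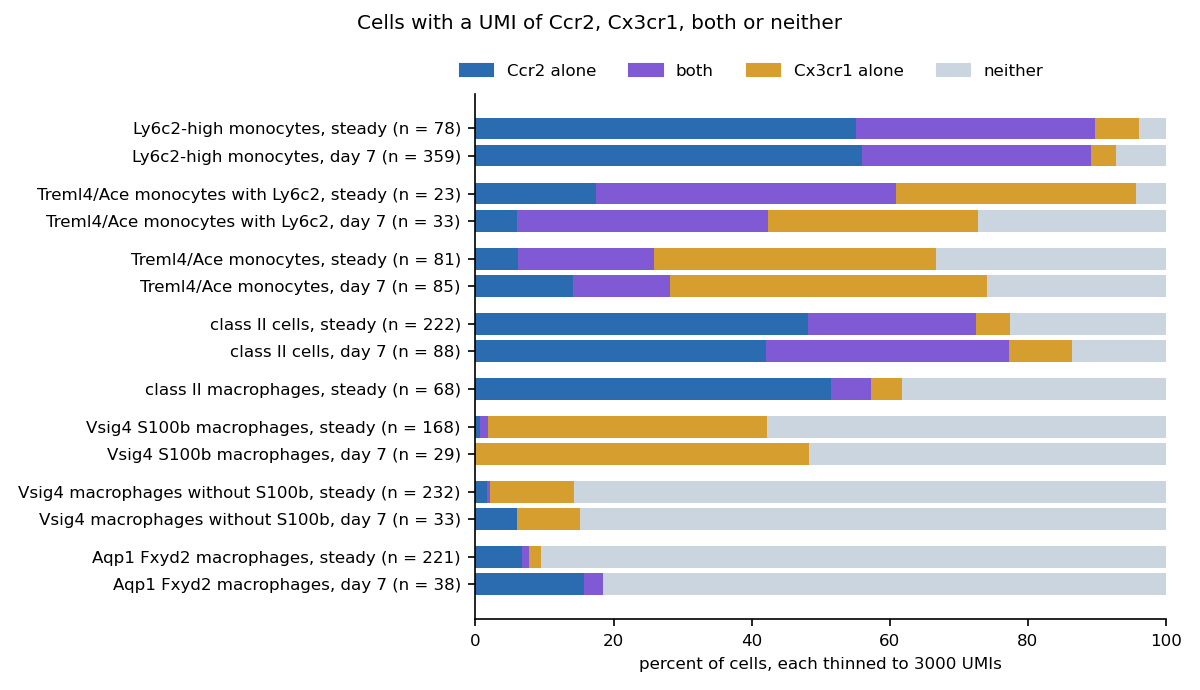
Share of cells (x axis, percent) with a UMI of Ccr2 alone, of both, of Cx3cr1 alone or of neither, after thinning each cell to 3000 UMIs, by class and library (y axis, with n). Cells with Ccr2 fill most of the Ly6c2-high bars, Cx3cr1 alone is the main state of Treml4/Ace monocytes (33 of 81 at steady state), and Vsig4 S100b macrophages hold almost no Ccr2.

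Along the amount of Ly6c2 itself, in the monocyte gates together with ungated cells that held a Ly6c2 UMI, the main step lay between none and any. At steady state Ccr2 was 125 CPM (95.8 to 160) in the 75 cells with no Ly6c2 UMI and 797 (722 to 878) in the 47 cells with up to 4 UMIs per 10000. Above that it stayed between 878 and 1066 CPM. Cx3cr1 was 403 CPM in cells with no Ly6c2, 243 (202 to 289) at up to 4 per 10000, 303 (256 to 356) at 4 to 8 and 119 (85.6 to 161) at 16 to 32, so it was not lower at every step. Day 7 cells gave a like pattern, with Ccr2 at 79.8 CPM (52.6 to 116) without Ly6c2 and 864 (801 to 929) at up to 4 per 10000, and Cx3cr1 at 485 (413 to 565) without it and 124 (110 to 139) at 16 to 32. Cells with no Ly6c2 UMI enter this series only through Treml4 or Ace, so the first step is partly set by the gates.

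Class II cells held less Ccr2 than Ly6c2-high monocytes at steady state, by less than 2-fold, and less Ccr1 in both libraries. Ccr2 was 767 CPM (735 to 799) at steady state against 926 (864 to 991) in Ly6c2-high monocytes. At day 7 it was 1129 (1060 to 1200) against 1045 (1015 to 1077), whose intervals overlap. Ccr1 was 80.1 CPM (70.1 to 91.2) and 86.0 (68.0 to 107), with log2 ratios to Ly6c2-high monocytes of -0.93 (-1.25 to -0.62) and -1.47 (-1.82 to -1.14). At steady state 0 of 4 members were past 2-fold between these classes, against 8.03% of genes higher and 7.46% lower in class II cells, and at day 7 Ccr1 was 2-fold lower, against 4.4% higher and 5.76% lower. The class was split at steady state by Mgl2, Cd209a and Clec10a, genes of a dendritic-like program. Mgl2-high cells (83) held 50.6 CPM (38.4 to 65.4) of Cx3cr1 and Mgl2-low cells (161) 155 (137 to 175), a log2 ratio of -1.62 (-2.05 to -1.20). Cxcr4 gave 62.0 CPM (48.4 to 78.2) against 188 (168 to 210), a log2 ratio of -1.60 (-2.00 to -1.23). Of the 4 members tested, these 2 were at least 2-fold lower in Mgl2-high cells, as were 3.96% of all genes, and 0 were 2-fold higher, as were 2.39%. Ccr2 differed little, at 691 and 817 CPM.

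Cx3cr1 levels differed among macrophage subsets. At steady state Vsig4 S100b macrophages (169 cells) held 261 CPM (240 to 283), Lyve1 macrophages (101) 125 (104 to 149), Vsig4 macrophages without S100b (258) 69.5 (59.9 to 80.1), and Aqp1 Fxyd2 macrophages (242) 13.6 (9.54 to 18.9). Cd209 Ccl8 macrophages (34) held 1 UMI in all. The order at day 7 was the same for the first and the last of the large subsets, with 296 CPM (233 to 370) in 31 Vsig4 S100b macrophages, 62.9 (37.3 to 99.4) in 43 without S100b and 35.0 (19.1 to 58.7) in 57 Aqp1 Fxyd2 macrophages, the last 2 with overlapping intervals. The steady state level of Vsig4 S100b macrophages lay below that of Treml4/Ace monocytes and above that of Ly6c2-high monocytes.

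The log2 ratio of Vsig4 S100b over Aqp1 Fxyd2 macrophages was 4.26 (3.77 to 4.79) for Cx3cr1 at steady state and 3.08 (2.25 to 4.02) at day 7. Cx3cr1 and Ccr1 were at least 2-fold higher among the 4 members tested at steady state, against 3.64% of all genes, and Ccr2 at least 2-fold lower, against 2.61%. Ccr1 was 408 CPM (382 to 436) against 142 (128 to 157) at steady state, and 522 (437 to 618) against 150 (114 to 193) at day 7. Ccr2 was 9.84 CPM (6.09 to 15.04) against 38.6 (31.5 to 46.9) at steady state; the former is below the level in fibroblast-like cells and is read as background, and the latter overlaps it. At day 7 the 31 Vsig4 S100b macrophages held 0 Ccr2 UMIs, which allows up to 9.68% of cells with a UMI. At day 7 Cx3cr1, Ccr1 and Cxcr4 were at least 2-fold higher there than in Aqp1 Fxyd2 macrophages and Ccr2 lower, against 10.5% and 9.34% of genes.

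Most steady state Ccr1 RNA lay in macrophages. Macrophages held 84.1% of all 3110 steady state Ccr1 UMIs, beside 9.94e+06 of the 1.71e+07 UMIs of all genes. Their Ccr1 level was 263 CPM (253 to 273), a log2 ratio to Treml4/Ace monocytes of 4.18 (3.34 to 5.19). At day 7, when macrophages were fewer, Ly6c2-high monocytes held 57.4% of the 1749 Ccr1 UMIs and macrophages 18.7%. Of the 1.08e+07 day 7 UMIs of all genes these classes held 4.21e+06 and 1.17e+06. The macrophage level was 280 CPM (251 to 312), close to that at steady state. Cxcr4 was lower in macrophages than in the monocyte classes, at 75.4 CPM (70.1 to 81.0) and 122 (103 to 143); the day 7 level is within the interval of the fibroblast-like cells. Beside Ly6c2-high monocytes, Ccr2 and Cxcr4 were at least 2-fold lower in macrophages in both libraries (2 of 4 members, against 12.6% and 12.7% of genes) and 0 members 2-fold higher (against 21.9% and 20.3%). Beside Treml4/Ace monocytes, Ccr1 was at least 2-fold higher in both (1 of 4, against 22.8% and 24% of genes), with 3 lower at steady state and 2 at day 7 (against 13.1% and 11.7%).

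Ccr2 in macrophages came from a minority of cells, which at steady state had far more class II RNA than the rest. At steady state 129 of 923 macrophages held a Ccr2 UMI, and 57 of these were among the 82 macrophages gated for class II, which stood at 598 CPM (549 to 651). Macrophages with Ccr2 had a median of 37.7 class II UMIs per 10000 against 1.09 in those without, and 79.5 C1q UMIs per 10000 against 134. Donor-class cells made up 60.2% (50.9 to 68.9) of the assigned macrophages with Ccr2 and 9.44% (7.42 to 11.8) of those without. At day 7, 21 of 167 macrophages held a Ccr2 UMI, with a C1q median of 41.1 against 85.4 and a class II median of 3.71 against 0. Of the 147 Ccr2 UMIs of day 7 macrophages, 15 lay in class II macrophages, 81 in Aqp1 Fxyd2 macrophages and 45 in macrophages of no named subset. A Ly6c2 UMI was held by 5 of the 21 and by 3 of the 146 others. The day 7 cells with Ccr2 were deeper, at a median of 9238 UMIs against 6390.5, so this Ly6c2 contrast is not separated from depth. At steady state 9 of the 129 cells with Ccr2 and 11 of the 794 without held a Ly6c2 UMI, at medians of 9844 and 10102.5 UMIs. Ly6c2 RNA thus moved with Ccr2 at steady state, and the part of monocyte RNA in the Ccr2 level was not tested.

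Origin was read from the CD45.1 and CD45.2 antibodies. Host-class cells numbered 763 at steady state and 126 at day 7, donor-class cells 753 and 981. Monocytes and class II cells were almost all of the donor class: 81 of 83 Ly6c2-high monocytes, 93 of 95 Treml4/Ace monocytes and 229 of 244 class II cells at steady state. A comparison by origin within these classes was therefore not made, and macrophages carried it.

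Among macrophages, host-class cells held far less Ccr2 and more Ccr1 than donor-class cells in both libraries. At steady state Ccr2 was 19.1 CPM (16.2 to 22.4) in 711 host-class and 420 (387 to 454) in 143 donor-class macrophages, a log2 ratio of -4.46 (-4.72 to -4.20). At day 7 it was 46.3 CPM (32.6 to 63.8) in 96 and 583 (463 to 725) in 22 cells, a log2 ratio of -3.66 (-4.26 to -3.08). The day 7 ratio leaves out 49 of 167 macrophages, whose origin was unassigned, among them 6 of the 21 with a Ccr2 UMI. The host level is within the interval of the fibroblast-like cells in both libraries. Of the 37 host-class UMIs at day 7, 27 came from 1 cell, and leaving out the top cell of each side gave -4.85.

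Ccr1 gave 286 CPM (274 to 298) against 113 (97.0 to 132) at steady state and 334 (295 to 376) against 64.8 (29.6 to 123) at day 7, with log2 ratios of 1.33 (1.11 to 1.57) and 2.37 (1.42 to 3.51). Of the 4 members tested, Ccr1 was at least 2-fold higher in host-class macrophages in both libraries, against 5.33% and 13.6% of all genes, and Ccr2 at least 2-fold lower, against 2.97% and 11.3%. Cx3cr1 was 91.8 CPM (85.3 to 98.8) against 54.0 (42.9 to 67.3) at steady state, a log2 ratio of 0.76 (0.43 to 1.12). At day 7 its ratio was 0.26 (-0.62 to 1.27), which includes no difference. The steady state Cx3cr1 ratio rests on 80 donor-class UMIs, of which 19 came from 1 cell: it was 0.40 with called doublets kept, 1.09 without the top cell of each side and 2.04 under a fixed origin threshold. The 69 steady state macrophages of unassigned origin, which this ratio leaves out, held the most Cx3cr1 of the 3 origin classes, at 313 CPM (269 to 363).

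The subsets were not evenly shared between the origins, which moves with these ratios. Of the 153 assigned Vsig4 S100b macrophages at steady state 151 were of the host class, while 60 of the 73 assigned class II macrophages were of the donor class. Within Aqp1 Fxyd2 macrophages, which held both, Ccr2 was 25.1 CPM (18.8 to 32.7) in 187 host-class and 104 (76.9 to 138) in 45 donor-class cells, a log2 ratio of -2.06 (-2.64 to -1.46), the 1 of 3 members past 2-fold, against 4.76% of genes higher and 2.92% lower. Ccr1 there was 145 CPM (129 to 162) against 113 (84.4 to 148), whose intervals overlap, and Cx3cr1 was at 13.5 and 15.2. Within class II macrophages Ccr2 was 149 CPM (92.0 to 227) in 13 host-class and 733 (670 to 800) in 60 donor-class cells. The Ccr2 difference thus had the same side inside both subsets, whereas that of Ccr1 was not seen beyond counting error inside Aqp1 Fxyd2 macrophages. Over all cells Cx3cr1 was lower in the host class, with log2 ratios of -0.73 (-0.87 to -0.60) and -0.45 (-0.71 to -0.20), opposite to the macrophages; the donor-class cells there include nearly all monocytes. Of 4 members over all cells, 1 was 2-fold higher in the host class at steady state and 2 lower, against 11.2% and 8.4% of genes, and at day 7 0 were higher and 1 lower, against 15.9% and 8.71%.

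**Figure D3:**
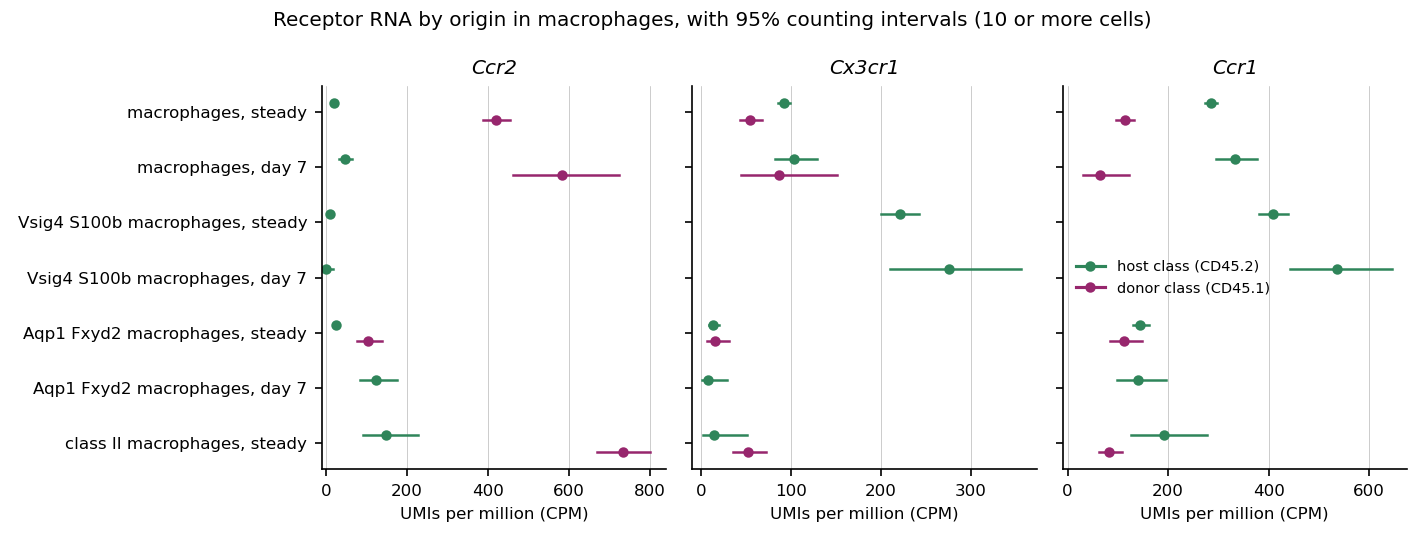
Levels of Ccr2, Cx3cr1 and Ccr1 (x axis, CPM) in host-class and donor-class macrophages and subsets of 10 or more cells (y axis), with 95% counting intervals as bars. Donor-class points lie to the right for Ccr2 (420 against 19.1 CPM over all steady state macrophages) and to the left for Ccr1 (113 against 286 CPM).

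Between the libraries the makeup differed: Ly6c2-high monocytes were 5.09% (4.08 to 6.27) of steady state and 35.5% (32.8 to 38.3) of day 7 cells, and macrophages 56.6% (54.2 to 59.0) and 13.9% (12.01 to 16.01). Over all cells Ccr2 was 305 CPM (296 to 313) at steady state and 705 (690 to 721) at day 7, a log2 ratio of 1.21 (1.16 to 1.26). Cxcr4 was 111 CPM (106 to 116) and 239 (230 to 248), a log2 ratio of 1.10 (1.02 to 1.19). Cx3cr1 was 118 and 164 CPM, a log2 ratio of 0.47, and Ccr1 182 and 162, a log2 ratio of -0.17. Of the 4 members tested 2 were at least 2-fold higher at day 7, against 6.51% of all genes, and 0 at least 2-fold lower, against 10.6%.

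Within classes the Ccr2 and Cx3cr1 ratios between libraries lay on both sides of those over all cells. The Cxcr4 ratios given below were all lower than its ratio over all cells, and those of Ccr1 all higher. In Ly6c2-high monocytes the log2 ratio of day 7 over steady state was 0.17 (0.07 to 0.28) for Ccr2, 0.11 (-0.16 to 0.40) for Cx3cr1, 0.64 (0.38 to 0.91) for Ccr1 and 0.48 (0.25 to 0.71) for Cxcr4. No member reached 2-fold in that class, against 4.12% of genes higher and 1.81% lower. In Treml4/Ace monocytes Ccr2 gave -0.15 (-0.47 to 0.18), Cx3cr1 -0.06 (-0.31 to 0.19) and Cxcr4 0.07 (-0.18 to 0.32), with 0 of 3 members past 2-fold against 6.26% and 4.68% of genes. With classes from clusters the Ccr2 ratio of these cells was -1.55, past 2-fold lower. The median of all genes tested was 0.11 in Ly6c2-high monocytes, and relative to it the Ccr2 ratio was 0.061.

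In monocytes with both marker sets Ccr2 was lower at day 7 beyond counting error, with a log2 ratio of -0.46 (-0.81 to -0.12) from 155 and 136 UMIs. Its UMIs were found in 23 of 24 cells at steady state and 20 of 33 at day 7. The 3 cells with the most Ccr2 held 33.5% of these UMIs at steady state and 41.2% at day 7, a spread that the interval does not cover. Thinned to 3000 UMIs, 23 steady state cells held 37 Ccr2 UMIs and 33 day 7 cells held 46. Cx3cr1 there gave -0.21 (-0.61 to 0.19). Neither reached 2-fold, against 11.7% of genes higher and 8.96% lower in this small class.

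Class II cells held more of 3 receptors at day 7 under the gates. Cx3cr1 was 114 CPM (102 to 127) at steady state and 259 (227 to 294) at day 7, a log2 ratio of 1.19 (0.94 to 1.44), and was the 1 of 4 members past 2-fold, against 4.49% of genes higher and 4.92% lower. Ccr2 gave 0.56 (0.45 to 0.67) and Cxcr4 0.82 (0.58 to 1.06). Mgl2-high cells were 83 of 244 class II cells at steady state and 13 of 97 at day 7. Within Mgl2-low cells alone Cx3cr1 gave 0.83 (0.56 to 1.10), Ccr2 0.56 (0.44 to 0.69) and Cxcr4 0.56 (0.30 to 0.82), with 0 of 4 members past 2-fold against 4.43% of genes higher and 5.94% lower. With classes from clusters the ratios over class II cells were 0.019 for Ccr2 and 0.45 for Cx3cr1, and thinned to 3000 UMIs that of Cx3cr1 was 0.78.

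In macrophages as a whole the log2 ratio was 0.64 (0.38 to 0.90) for Ccr2, 0.26 (-0.01 to 0.52) for Cx3cr1, 0.09 (-0.08 to 0.26) for Ccr1 and 0.69 (0.42 to 0.95) for Cxcr4. None reached 2-fold, against 1.1% of genes higher and 0.886% lower. The Ccr2 ratio became 0.34 without the top cell of each side and 0.20 with equal weight per cell. In Vsig4 S100b macrophages Ccr1 gave 0.35 (0.08 to 0.62) and Cx3cr1 0.18 (-0.18 to 0.53), with 0 of 3 members past 2-fold against 7.69% and 5.42% of genes. In those without S100b Cxcr4 gave 0.93 (0.41 to 1.41), with 0 of 3 members past 2-fold against 6.47% and 4.39%. Cells in no gate gave 0.76 for Ccr2, 1.26 for Cx3cr1, 1.18 for Ccr1 and 1.02 for Cxcr4, with 3 of 4 members past 2-fold against 5.72% of genes higher and 6.87% lower.

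Ccr2 in Aqp1 Fxyd2 macrophages was 38.6 CPM (31.5 to 46.9) at steady state and 202 (161 to 251) at day 7. Fibroblast-like cells held 30.8 CPM (18.8 to 47.6) and 89.0 (35.8 to 183, from 7 UMIs), which do not differ beyond counting error. Their interval overlapped that of Aqp1 Fxyd2 macrophages in both libraries. The log2 ratio was 2.39 (1.95 to 2.82) in these macrophages, and 2.13 without the top cell of each side. The 81 day 7 UMIs came from 11 of 57 cells, 27 of them from 1 cell. Of the 11 cells 3 held a Ly6c2 UMI, against 0 of the other 46. The 11 cells were deeper, at a median of 11424 UMIs against 5623, so this contrast is not separated from depth. Cx3cr1 gave 1.36 (0.35 to 2.29) from 36 and 14 UMIs and turned to -0.78 when cells were thinned to 3000 UMIs. These 2 of 4 members were past 2-fold, against 4.86% of genes higher and 3.3% lower.

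**Figure D4:**
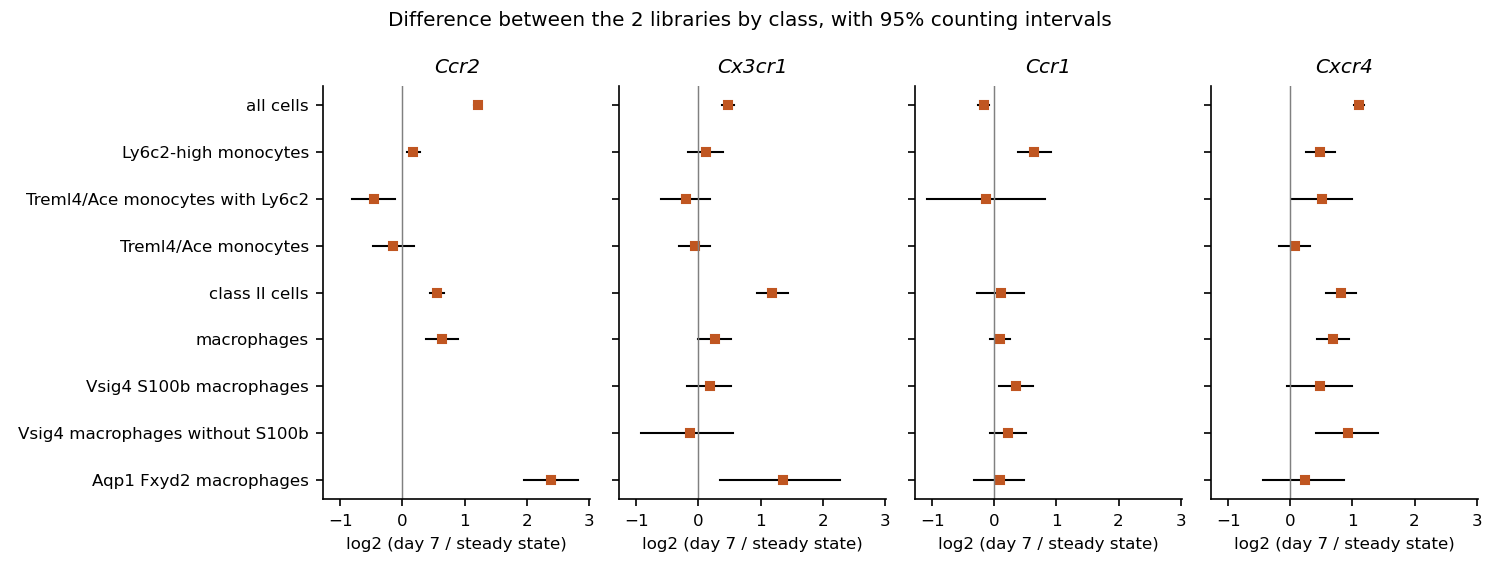
Log2 ratio of day 7 over steady state (x axis) for Ccr2, Cx3cr1, Ccr1 and Cxcr4 by class (y axis), for genes with at least 20 CPM on either side; squares are ratios of summed levels and bars 95% counting intervals. Ccr2 is 1.21 over all cells and 0.17 within Ly6c2-high monocytes, below 0 in monocytes with both marker sets, and 2.39 in Aqp1 Fxyd2 macrophages.

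Most day 7 Cxcr2 UMIs lay in the granulocyte precursors, which were found almost only in that library. Cxcr2 had 11 UMIs in all steady state cells and 96 at day 7, of which 53 lay in the 85 late precursors, the cells with secondary granule genes such as Camp and Ltf. Ly6c2-high monocytes, cells in no gate and the 21 lymphoid or mast cells held 9 each at day 7. The lymphoid or mast cells held only 75072 UMIs of all genes, against 975468 in late precursors, so Cxcr2 was not particular to the precursors. Late precursors held 54.3 CPM (40.7 to 71.1) and early precursors, with primary granule genes such as Mpo and Elane, 12.8 (6.38 to 22.9). The log2 ratio of early over late was -2.09 (-3.17 to -1.13). Cxcr4 was 114 CPM (92.5 to 139) in early and 78.9 (62.3 to 98.7) in late precursors, a ratio of 0.53 (0.08 to 0.98), and both levels are within the interval of the day 7 fibroblast-like cells (35.8 to 183). Ccr1 was 17.4 CPM (9.76 to 28.8) and 59.5 (45.15 to 76.9), a ratio of -1.77 (-2.70 to -0.93). Of the 4 members tested, Ccr2 (1.11, -0.07 to 2.37) was past 2-fold higher in early precursors, against 17.2% of genes, and Cxcr2 and Ccr1 past 2-fold lower, against 6.32%.

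The 19 Ccr2 UMIs of early precursors all came from 1 cell, and Cx3cr1 had 2 UMIs in early and 0 in late precursors. Both classes thus lacked the monocyte pair, with Ccr2 below its level in fibroblast-like cells. Thinned to 3000 UMIs, 14 of 37 early precursors held Cxcr4 alone, 3 Cxcr2 alone and 1 both, and of 63 late precursors 7 held Cxcr4 alone, 10 Cxcr2 alone and 1 both. Unthinned, Cxcr4 alone was found in 27 of 50 early and 30 of 85 late precursors.

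Ccr7 was nearly absent from monocytes and macrophages. It had 40 UMIs at steady state, of which 30 lay in 1 of the 2 cells gated as migratory dendritic cells by Fscn1, Ccl22, Cacnb3 and Il4i1. All 19 day 7 UMIs were in 3 lymphoid or mast cells. In Ly6c2-high monocytes it had 0 UMIs in both libraries; 0 of 426 cells at day 7 allows up to 0.704% of cells with a UMI. The 244 class II cells at steady state held 3 Ccr7 UMIs, all in 1 cell.

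The surface antibodies gave little signal for CCR2 and CXCR4. The median count per cell was 0 at steady state and 2 at day 7 for CCR2, of medians of 1050 and 543.5 antibody counts per cell in all, and 0 in both libraries for CXCR4. Per 10000 antibody counts CCR2 was 5.94 (5.64 to 6.26) at steady state and 27.5 (26.3 to 28.7) at day 7, and fibroblast-like cells moved the same way, from 24.5 (16.9 to 34.4) to 63.0 (38.5 to 97.2), so the difference between libraries is not read as one of CCR2 protein. Within the steady state library, class II cells with Ccr2 RNA had 8.50 (7.43 to 9.68) and those without 4.05 (2.65 to 5.94). In day 7 Ly6c2-high monocytes the order was the reverse, at 33.8 (31.4 to 36.3) with and 59.5 (44.5 to 78.0) without. That reversal rests on the scaling, since the mean count per cell was 1.87 with and 1.37 without. CXCR4 antibody was 2.17 per 10000 with Cxcr4 RNA and 2.09 without over steady state cells, and 6.61 (5.92 to 7.36) with and 8.22 (7.14 to 9.41) without at day 7. In day 7 Ly6c2-high monocytes it was 6.88 (5.67 to 8.26) with and 10.96 (8.42 to 14.02) without, with mean counts per cell of 0.40 and 0.45. Higher CXCR4 antibody with Cxcr4 RNA was thus not seen in these groups per 10000 counts beyond counting error.

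CX3CR1 antibody followed Cx3cr1 RNA in macrophages and in steady state class II cells. At steady state the 261 macrophages with a Cx3cr1 UMI had 31.5 antibody counts per 10000 (30.1 to 33.0) and the 662 without 9.14 (8.56 to 9.75). Within Vsig4 S100b macrophages alone the values were 41.3 (39.0 to 43.7) and 9.46 (7.57 to 11.7), with median counts per cell of 6 and 1. At day 7 they were 28.9 (21.5 to 38.0) and 11.7 (6.56 to 19.3). Class II cells gave 19.2 (17.0 to 21.5) with and 10.3 (8.92 to 11.9) without a Cx3cr1 UMI at steady state. At day 7 they gave 25.6 (20.4 to 31.8) and 24.5 (17.5 to 33.4), whose intervals overlap. Aqp1 Fxyd2 macrophages, lowest in Cx3cr1 RNA among the large subsets, also had the lowest antibody level of these, at 7.80 (6.89 to 8.81). In Treml4/Ace monocytes, highest in RNA, the antibody stood at 15.5 (13.7 to 17.6) at steady state and 14.3 (11.4 to 17.7) at day 7, no higher than the 17.4 (14.5 to 20.6) of steady state Ly6c2-high monocytes. Per 10000 counts the RNA order of the monocyte classes was therefore not seen at the surface. Treml4/Ace cells carried more antibody in all, with a median of 1132 counts per cell against 762 at steady state. By mean count per cell CX3CR1 was 2.61 in Treml4/Ace and 1.57 in Ly6c2-high monocytes at steady state, the order of the RNA, and 0.86 and 1.04 at day 7. Fibroblast-like cells, with a median of 114.5 antibody counts in all, held 33.4 CX3CR1 counts per 10000 (24.4 to 44.7) at steady state but a mean of 0.66 per cell, against 6.81 in macrophages with Cx3cr1 RNA and 1.39 in those without.

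**Figure D5:**
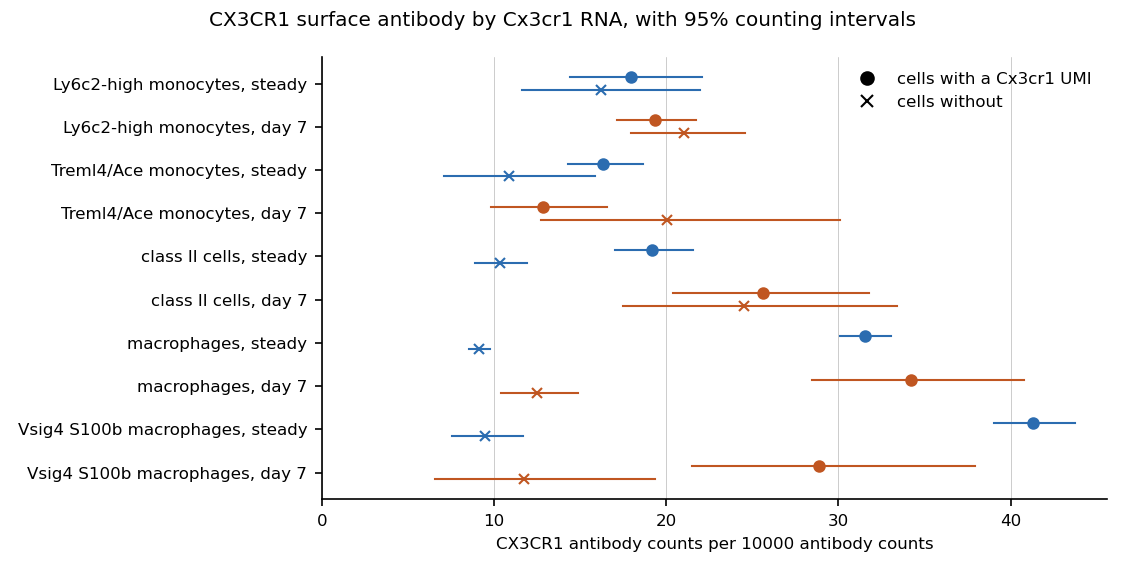
CX3CR1 antibody counts per 10000 antibody counts (x axis) in cells with (circles) and without (crosses) a Cx3cr1 UMI, by class and library (y axis), with 95% counting intervals as bars. Circles and crosses separate in macrophages (31.5 against 9.14 at steady state) and in steady state class II cells. They overlap in Ly6c2-high monocytes and in day 7 class II cells.

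The other genes of the system were read from lists by role. Of 21 other receptors, 4 passed the 20 CPM minimum in Ly6c2-high monocytes between the libraries, with 1 at least 2-fold higher at day 7 (against 4.12% of all genes) and 0 lower (against 1.81%), and a median log2 ratio of -0.02 beside 0.11 over all genes tested. Of these receptors 5 passed in Treml4/Ace monocytes and 3 were at least 2-fold higher and 0 lower, against 6.26% and 4.68% of all genes. Fpr2, a formyl peptide receptor, was among them, at 13.2 and 151 CPM. C5ar1, the receptor of complement C5a, was 463 and 471 CPM in macrophages.

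Of 19 ligands 7 passed the minimum in Ly6c2-high monocytes, 4 were at least 2-fold lower at day 7 (against 1.81% of all genes) and 0 higher (against 4.12%), with a median log2 ratio of -1.02 beside 0.11. Ccl2, a ligand of Ccr2, was 451 and 217 CPM, and Ccl4 595 and 106. In macrophages 10 passed, 1 was at least 2-fold lower (against 0.886% of all genes) and 0 higher (against 1.1%), with a median of 0.02, and Ccl2 was 473 and 544 CPM. Cxcl12, the ligand of Cxcr4, was near 0 in all described classes. Of 10 immediate-early genes, a list added after the data were seen, 8 passed in Ly6c2-high monocytes, with 4 at least 2-fold lower at day 7, 0 higher and a median of -1.01; their part in the ligand levels was not tested.

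Of 25 genes of receptor signalling and trafficking, 24 passed the minimum in Ly6c2-high monocytes, with 0 at least 2-fold higher and 1 lower at day 7, against 4.12% and 1.81% of all genes, and a median of 0.00. Between monocyte classes at steady state 3 were at least 2-fold higher and 3 lower in Ly6c2-high than in Treml4/Ace monocytes, against 10.6% and 10.5% of all genes. Grk3, a kinase that desensitises such receptors, was 50.3 CPM in Ly6c2-high and 249 in Treml4/Ace monocytes, with 1.41 in macrophages. Rgs10, a regulator of G protein signalling, was highest in macrophages, at 473 CPM.

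Genes with the most similar pattern were sought over 21 class and library groups of at least 20 cells, by Pearson correlation of log2(CPM + 10) among 8241 genes. The groups share 2 libraries and their depths, so the values describe and carry no p. For Ccr2 the 5 nearest were Selplg (0.96), which encodes the selectin ligand PSGL-1, Lilra6 (0.94), Sub1 (0.93), Emb (0.92) and H2-DMa (0.91). For Cx3cr1 they included Sgk1 (0.89), Aup1 (0.86), Tgm2 (0.86) and Cd300c2 (0.86). For Cxcr4 they were Myo1f (0.94), Smchd1, Arhgef37, Dock2 (each 0.91) and Plekhj1 (0.91). Between members the value was 0.73 for Cx3cr1 and Cxcr4, 0.42 for Ccr2 and Cxcr4, 0.34 for Ccr2 and Cx3cr1 and -0.38 for Ccr2 and Ccr1. Ccr1 was not compared with Cxcr2, nor any member with Ccr7.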

How the data were processed

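Synovial cells were profiled by CITE-seq (Chromium 3′ v3.1, dual index, with feature barcodes), per the labels' protocols. The deposited values are raw UMI counts per gene and antibody for each cell barcode; the submitters' processing notes name Cell Ranger 6.1.2, Seurat 4.4.0 and mm10 without saying what each was used for. Barcodes passed (1637 and 1210) if they had 500 UMIs, 200 genes and no more than 10% mitochondrial UMIs; Scrublet (scanpy 1.11.5) then called 7 and 10 doublets, which were removed. Antibody counts were used only for origin and surface levels.

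Gates were limits on marker UMIs per 10000, set after the spread of the marker sums in these cells was seen and without use of the receptors: 16 for C1qa, C1qb and C1qc, 64 for class II and for each precursor list, 2 for Treml4 and Ace, 8 for Ly6c2 (4 among Treml4/Ace cells), 4 for Vsig4 and 1 for S100b. Cells between 0.5 and 2 times the Ly6c2 limit numbered 81 below and 69 above it at steady state, and 131 and 247 at day 7. Cells were called host or donor class at a posterior of 0.95 in a 2-component Gaussian mixture fitted to the log2 balance between the host (CD45.2) and donor (CD45.1) antibody counts (scikit-learn 1.9.0).

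Ratios used summed counts and conditional exact Poisson intervals (95%), shares exact Clopper-Pearson intervals (scipy 1.17.1), and 0 counts a floor of 3. Genes needed 20 CPM on either side, and a 2-fold ratio was the call. No test across libraries was possible. The interval code was tested on simulated data. The named genes were the 6 members, the listed receptors, ligands and signalling genes at 20 CPM, and the 5 most alike genes of 3 members; members and lists were chosen with earlier results of these data known. A few genes these rules name are not reported here. Alternatives were gates at 2 and 0.5 times the limits, a 5% mitochondrial limit, doublets kept, classes from Leiden clusters, equal weight per cell, thinning, another scaling and a fixed origin threshold.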

Additional observations from a re-analysis of the deposited data

Results flagged for a closer look

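The day 7 over steady state ratio of Ccr2 took opposite signs in different classes under the gates and the scaling to summed UMIs, and the difference between the classes was not tested. It was -0.46 on the log2 scale in monocytes with Treml4 or Ace and Ly6c2, and 0.17 in Ly6c2-high monocytes, 0.56 in class II Mgl2-low cells and 2.39 in Aqp1 Fxyd2 macrophages. The value in Ly6c2-high monocytes was 0.061 relative to the median ratio over genes and 0.058 with doubled gate limits, both below the lower bound of its counting interval, 0.067.

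Receptor RNA was also present in the 282 and 77 barcodes that the filters left out, which had medians of 1028 and 1139 UMIs. At steady state these held Ccr2 at 291 CPM, Cx3cr1 at 140, Ccr1 at 168, Cxcr4 at 132 and Ccr7 at 26.4. At day 7 they held Ccr2 at 512 CPM, Cx3cr1 at 102, Ccr1 at 160 and Cxcr4 at 184. Ccr7 in left-out steady state barcodes rests on 14 UMIs, against 40 in all cells that were kept.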

How the results depend on the processing

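No paired analysis was possible because each group has 1 library, and leaving out a replicate could not be run for the same reason. Of 469 values of 63 results under other settings, 387 stayed within the counting interval, 81 moved beyond it and 1 changed sign: Cx3cr1 in Aqp1 Fxyd2 macrophages at day 7 over steady state was -0.78 in cells thinned to 3000 UMIs, against 1.36. Causes were not tested. Values below are log2 ratios, steady state before day 7 where both are given.

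For Ly6c2-high over Treml4/Ace monocytes, Ccr2 was 1.56 and 3.23 with classes from clusters, 2.18 with equal weight per cell at steady state, 2.28 thinned at steady state and 2.52 with doubled gate limits at day 7. Cx3cr1 was -1.09 with clusters at steady state, -1.12 and -1.09 thinned, and -1.62 with doubled limits at day 7.

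Over all cells, equal weight gave a day 7 ratio of 1.05 for Ccr2 and 0.59 for Cx3cr1, and thinning 0.59 for Cx3cr1. In Ly6c2-high monocytes Ccr2 was 0.058 with doubled limits, 0.29 thinned and 0.061 scaled to the median ratio over genes. Clusters gave -1.55 for Ccr2 and equal weight 0.19 for Cx3cr1 in Treml4/Ace monocytes. In class II cells Ccr2 was 0.43 with doubled limits and 0.019 with clusters, and Cx3cr1 1.4997 with doubled limits, 0.45 with clusters, 0.93 with equal weight and 0.78 thinned. In macrophages Ccr2 was 0.20 with equal weight, 0.38 thinned and 0.34 without the top cell of each side, a setting chosen after seeing the data, and Cx3cr1 0.60 with equal weight.

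For host-class over donor-class macrophages, Ccr2 at steady state was -4.05 with equal weight and -3.88 thinned, and at day 7 -4.85 without the top cells. Cx3cr1 at steady state was 0.40 with doublets kept, 1.28 with clusters, 1.16 with equal weight, 1.33 thinned and 2.04 with a fixed origin threshold, and at day 7 1.69 with equal weight.

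Shares of double-positive Ly6c2-high monocytes were 69.9% and 57.5% unthinned, 10.0% and 15.1% at 1500 UMIs, and 5.13% and 8.64% when 2 UMIs were required. Those of Treml4/Ace monocytes were 38.9% and 27.1% unthinned, 4.55% at 1500 UMIs at steady state, and 4.94% and 3.53% with 2 UMIs. Some alternatives gave no value where a class was missing or too small. The number of UMIs limits the Ccr2 ratio of the 24 and 33 monocytes with both marker sets, which rests on 155 and 136.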
